A study of Mus musculus with 10 samples.

Results

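The insulin and insulin-like growth factor (IGF) signalling genes described here are 10 genes of the mouse dorsal root ganglion (DRG), the group of sensory nerve cell bodies on each dorsal spinal root. They were chosen by name: the ligands Igf1 and Igf2, the receptors Igf1r and Insr, the adaptors Irs1 and Irs2, and the binding proteins Igfbp3, Igfbp4, Igfbp5 and Igfbp7. Each matched 1 of the 40481 Ensembl genes in the deposited count table, and all 10 were among the 18401 genes with enough counts to be tested. RNA was sequenced from 5 libraries of C57BL/6 mice given oxaliplatin at 10 mg/kg, a platinum cancer drug whose known side effect is sensory neuropathy, and from 5 libraries of C57BL/6 mice given vehicle. The oxaliplatin treatment ran for 8 weeks. The labels give neither age nor how often the drug was given. They number the libraries but do not state that these are separate animals, so every p-value reflects only how these samples vary, which may be technical.

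Insulin and the IGFs act through 2 related receptor tyrosine kinases, Insr and Igf1r, which phosphorylate the adaptors Irs1 and Irs2. The adaptors recruit PI3-kinase, which activates the kinase AKT, and AKT keeps the FOXO transcription factors out of the nucleus. IGF-binding proteins hold the ligands outside the cell and can restrain or extend their action. In sensory neurons, insulin and IGF1 are known to support survival and the growth of neurites.

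None of the 10 genes passed the test between oxaliplatin and vehicle (quasi-likelihood test in edgeR, adjusted p below 0.05 by Benjamini-Hochberg over all tested genes). Of the 10, 0 were higher and 0 were lower, while 1.27% of all tested genes were higher and 0.772% lower. DESeq2, which called 2.92% of the genes it tested higher and 2.3% lower, called 0 of the 10, and so did limma voom with quality weights (2.39% higher and 1.98% lower). Of 19 alternative fits in all, 17 called 0 of the 10 and 2 called at least 1. At an unadjusted p below 0.05, 3 of the 10 were higher (Igf1r, Insr and Igfbp7) and 0 lower, against 8.51% of all tested genes higher and 7.8% lower. The fitted difference was above 0 for 7 of the 10, with a median log2 fold change of 0.21, against 0.01 over all tested genes, of which 51% lay above 0. For none of the 10 did every oxaliplatin library lie above, or every one below, all vehicle libraries; 2.25% of tested genes were above and 1.77% below in this way.

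**Figure D1:**
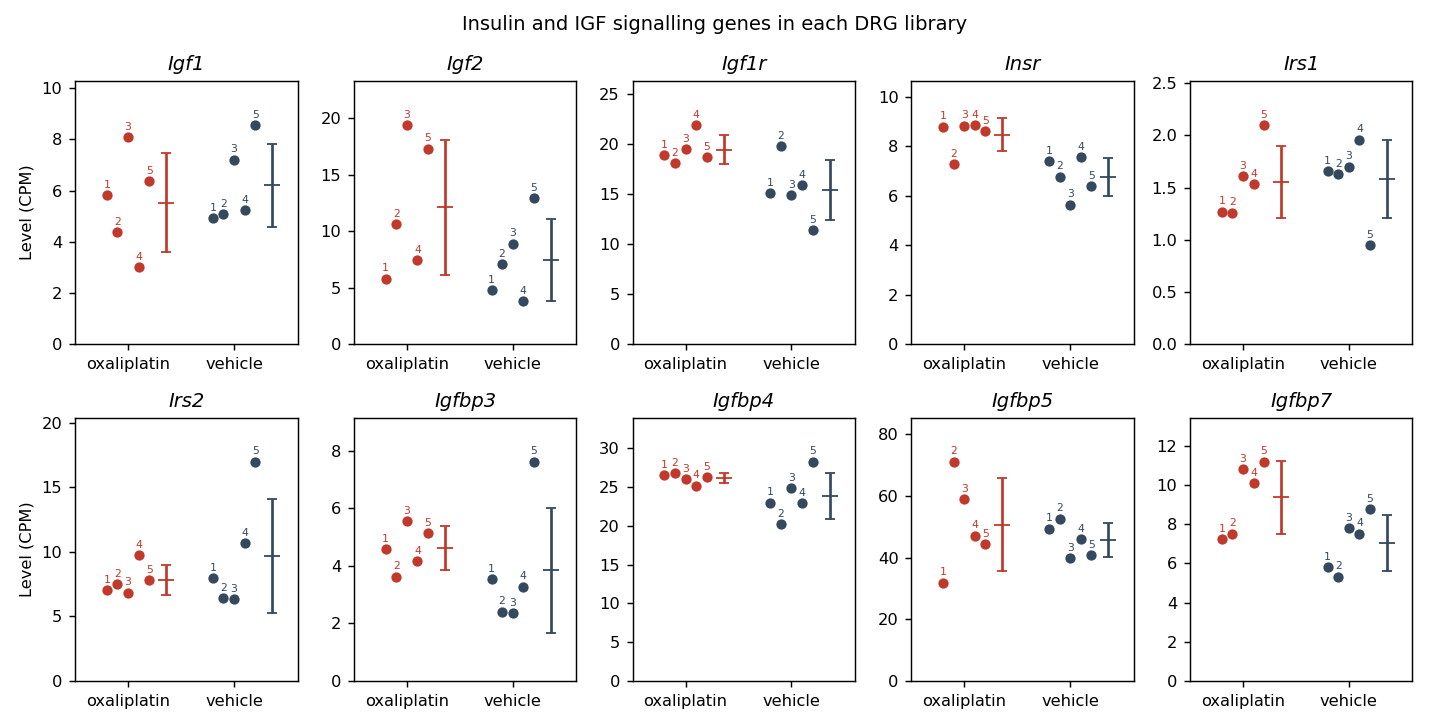
Level of each of the 10 genes in CPM (counts scaled to library size, linear axes from 0) in the 5 oxaliplatin and 5 vehicle libraries. Points are libraries with their replicate number, and bars are the mean and SD. The groups overlap in every panel, and vehicle replicate 5 is the highest or lowest vehicle library for 8 of the 10 genes.

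Libraries held 52963470 to 60984426 counted reads, and a library's count for any of the 10 genes was between 70 and 4158 after oxaliplatin and between 51 and 2808 after vehicle. The sum of 10 neuron markers, among them Rbfox3 and Tubb3, was 17500 to 18900 CPM after oxaliplatin and 18700 to 21600 CPM after vehicle, and 0 of the 10 passed the test. The largest part of this sum was Tubb3, at a mean of 8170 CPM after oxaliplatin and 9410 CPM after vehicle (log2 fold change -0.20 ± 0.06, edgeR adjusted p = 0.113). Rbfox3 averaged 147 CPM in both groups, and 4 of the 10 neuron markers had a log2 fold change above 0. The sum of 8 RNAs that stay largely in the nucleus, taken as a sign of RNA quality, was 8920 to 11400 CPM after oxaliplatin and 7850 to 8770 CPM after vehicle, without overlap. Of these 8, 2 rose, Neat1 (log2 fold change 0.33 ± 0.07, edgeR adjusted p = 0.0256) and Meg3 (0.32 ± 0.08, edgeR adjusted p = 0.0492). Most of the sum was Malat1, at a mean of 6170 CPM after oxaliplatin and 5300 CPM after vehicle (0.22 ± 0.07, edgeR adjusted p = 0.122). Snhg11 had the largest fitted value, at a mean of 1990 CPM after oxaliplatin and 1450 CPM after vehicle (0.46 ± 0.12, edgeR adjusted p = 0.0859). Rian (-0.06), Mirg (0.01) and Kcnq1ot1 (0.07) had fitted values near 0, and 7 of the 8 lay above 0. The part of RNA quality in the differences of Igf1r, Insr and Igfbp7 was not tested. Levels are given in CPM, counts scaled to the library size after adjustment by the trimmed mean of M-values (TMM).

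Among the ligands, Igf2, a growth factor of embryonic tissue that is imprinted and in adult nervous tissue is made largely by the coverings and vessels, varied more than Igf1. Igf2 stood at 5.81, 10.6, 19.4, 7.43 and 17.3 CPM in oxaliplatin replicates 1 to 5, against 4.78, 7.09, 8.89, 3.78 and 12.9 CPM in vehicle replicates 1 to 5. Only oxaliplatin replicates 3 and 5 lay above all vehicle libraries. The log2 fold change of Igf2 was 0.70 ± 0.44 (SE), with a 95% interval of -0.31 to 1.71 (edgeR adjusted p = 0.495). The Igf2 SD was 49.6% of the mean after oxaliplatin and 48.3% after vehicle, and the interval spans both no difference and a 2-fold one. With a block for replicate number the Igf2 value was 0.68 ± 0.13 (edgeR adjusted p = 0.0113, with 0.0113 to 0.694 over all alternatives). The labels do not say what libraries of the same number share.

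Markers of the meninges, the coverings of nerve roots and ganglia, varied along with Igf2. The summed level of 10 such markers was 254, 444, 1100, 446 and 1550 CPM in oxaliplatin replicates 1 to 5, against 116, 320, 278, 164 and 452 CPM in vehicle replicates 1 to 5. The libraries with the most Igf2 in each group, oxaliplatin replicates 3 and 5 and vehicle replicate 5, also had the highest sums of their groups. Ptgds, a prostaglandin synthase of meningeal cells, stood at 114 to 1340 CPM after oxaliplatin and 26.3 to 323 CPM after vehicle, or 44.8% to 86.5% of the sum after oxaliplatin and 22.6% to 71.5% after vehicle. The other 9 markers summed to 138 to 209 CPM after oxaliplatin and 89.9 to 135 CPM after vehicle, without overlap, and most of this was Ogn, at 96.5 to 127 CPM after oxaliplatin and 64.7 to 89.1 CPM after vehicle. Without Ogn as well, the other 8 summed to 35.5 to 82.3 CPM after oxaliplatin and 24.3 to 45.6 CPM after vehicle, and the groups overlapped. All 10 had a log2 fold change above 0 and 1 passed, Ogn, a matrix proteoglycan also made by fibroblasts (log2 fold change 0.47 ± 0.09, edgeR adjusted p = 0.0174). No meningeal marker was at 0 in any library. The match between libraries was not particular to meningeal markers or to Igf2. Oxaliplatin replicates 3 and 5 and vehicle replicate 5 also had the highest sums of 10 macrophage markers in their groups. The macrophage sums were 53.3 to 76.4 CPM after oxaliplatin and 49.9 to 91.4 CPM after vehicle. Igfbp3 and Igfbp7 were highest in the same libraries. The part of meningeal RNA in the Igf2 values was not tested, and in whole ganglia more cells of a type cannot be told apart from more RNA per cell.

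**Figure D2:**
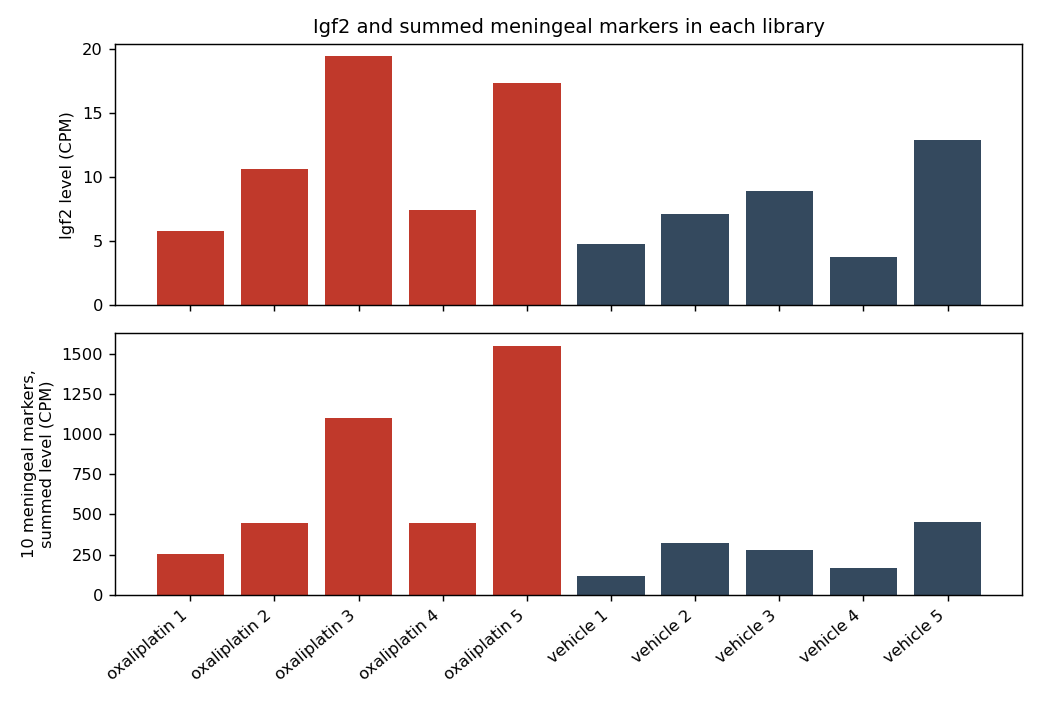
Igf2 level (upper bars, CPM) and the summed level of 10 meningeal markers (lower bars, CPM) in each library, oxaliplatin in red and vehicle in dark blue, both axes from 0. Oxaliplatin replicates 3 and 5 have the highest bars in both, and vehicle replicate 5 is the highest vehicle library in both.

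Igf1, the growth factor that supports sensory neurons, was highest in the same libraries of each group but had a fitted difference below 0. Igf1 stood at 5.84, 4.38, 8.09, 3 and 6.36 CPM in oxaliplatin replicates 1 to 5, against 4.92, 5.07, 7.21, 5.24 and 8.57 CPM in vehicle replicates 1 to 5. Oxaliplatin replicates 2 and 4 lay below all vehicle libraries and none lay above them. The log2 fold change of Igf1 was -0.16 ± 0.24 (95% interval -0.68 to 0.35, edgeR adjusted p = 0.806). Per kilobase of exon, the ratio of Igf2 to Igf1 was 1.72, 4.20, 4.16, 4.28 and 4.71 in oxaliplatin replicates 1 to 5, against 1.68, 2.42, 2.13, 1.25 and 2.60 in vehicle replicates 1 to 5. The 4 oxaliplatin libraries other than replicate 1 thus had a higher ratio than any vehicle library, a description with no test. Of the insulin genes, Ins1 had 0 counts in every library and Ins2 0 to 9.

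Both receptors had small differences of like size. Igf1r, the main receptor for both IGFs, stood at 18.9, 18.1, 19.5, 21.9 and 18.7 CPM in oxaliplatin replicates 1 to 5, against 15.1, 19.8, 14.9, 15.9 and 11.4 CPM in vehicle replicates 1 to 5. Vehicle replicate 2 lay among the oxaliplatin libraries, and the other 4 vehicle libraries lay below all of them. The Igf1r log2 fold change was 0.33 ± 0.12, or 1.26-fold, with a 95% interval of 0.08 to 0.58 that is not adjusted for the number of genes (edgeR adjusted p = 0.17). Without vehicle replicate 2 it was 0.44 (edgeR adjusted p = 0.0475, with 0.0475 to 0.354 over all alternatives), the only fit with 1 library left out in which any of the 10 genes passed.

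Insr, the insulin receptor, stood at 8.80, 7.28, 8.84, 8.87 and 8.61 CPM in oxaliplatin replicates 1 to 5, against 7.40, 6.78, 5.65, 7.58 and 6.39 CPM in vehicle replicates 1 to 5. Of the oxaliplatin libraries, only replicate 2 lay within the vehicle range, and the other 4 lay above it. Its log2 fold change was 0.33 ± 0.11, or 1.25-fold (95% interval 0.08 to 0.57, edgeR adjusted p = 0.158), the smallest adjusted p of the 10 genes. Per kilobase of exon, the level of Igf1r was 1.88 ± 0.140 times that of Insr after oxaliplatin and 1.88 ± 0.382 times after vehicle (SD, n = 5 each).

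**Figure D3:**
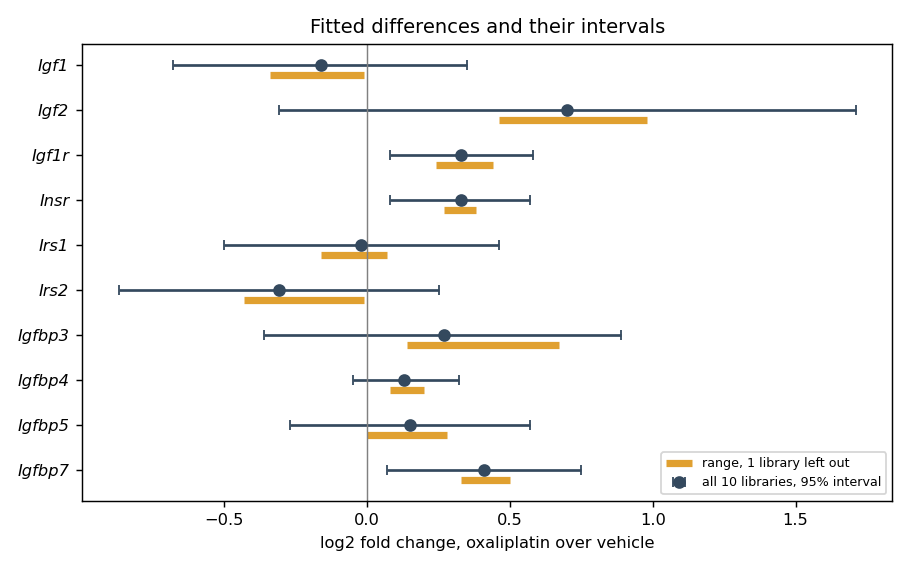
Fitted log2 fold change of oxaliplatin over vehicle for each of the 10 genes (points) with its unadjusted 95% interval (bars), and the range of the same value when 1 of the 10 libraries was left out (orange). The intervals of Igf1r, Insr and Igfbp7 lie above 0 and the other 7 cross it; Igf2 has the widest, from -0.31 to 1.71.

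The adaptor genes Irs1 and Irs2 are shown with sequence because their promoters hold the same pair of motifs. RefSeq promoter windows (GRCm38.p6, 250 bases before to 50 after the start) were found for 9 of the 10 genes, all but Insr. In both adaptor genes an E-box (CACGTG) stands beside TGTTTTG, the core of an insulin response element bound by FOXO factors. The stretches below are 5′ to 3′ on the minus strand, at chr1:82291537-82291566 for Irs1 and chr8:11008956-11008985 for Irs2, with both motifs in capitals.
Irs1: cagaggctccgtCACGTGTTTTGctcctct
Irs2: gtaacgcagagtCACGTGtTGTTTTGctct
The motifs share 2 bases in Irs1, where the E-box begins 115 bases before the start, and have 1 base between them in Irs2, where it begins 44 bases before the start. On either strand, CACGTG was in 7.15% and TGTTTTG in 6.28% of all 32851 windows. The pair with the E-box first, read along the strand that holds TGTTTTG, sharing 2 bases or with at most 6 between, was in 9 windows of 8 genes (0.0274% of windows). Irs1 and Irs2 are among these 8 genes, and pairs in the other order were not counted. This search was made after the windows had been read, and a match of letters is not evidence of binding. None of the windows of the other 7 genes held either motif.

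Irs2, the adaptor that FOXO factors are known to switch on in liver, did not pass the test. Irs2 stood at 7.02, 7.5, 6.84, 9.74 and 7.83 CPM in oxaliplatin replicates 1 to 5, against 7.94, 6.40, 6.37, 10.7 and 17.0 CPM in vehicle replicates 1 to 5. All oxaliplatin libraries lay within the vehicle range, whose top was vehicle replicate 5. The log2 fold change of Irs2 was -0.31 ± 0.26 (95% interval -0.87 to 0.25, edgeR adjusted p = 0.605) and -0.01 without vehicle replicate 5.

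Irs1 was the least abundant of the 10, both in counts and per kilobase. Irs1 stood at 1.27, 1.26, 1.61, 1.53 and 2.10 CPM in oxaliplatin replicates 1 to 5, against 1.66, 1.63, 1.70, 1.96 and 0.951 CPM in vehicle replicates 1 to 5. The groups overlapped, with vehicle replicate 5 the lowest library and oxaliplatin replicate 5 the highest. Its log2 fold change was -0.02 ± 0.23 (95% interval -0.50 to 0.46, edgeR adjusted p = 0.978). In vehicle replicate 5, low Irs1 and high Irs2 gave a ratio of Irs2 to Irs1 per kilobase of 25.9, against 5.38 to 9.18 after oxaliplatin and 5.42 to 7.91 in the other vehicle libraries.

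Among the binding proteins, Igfbp7 is a secreted protein of vessels and connective tissue that binds IGFs only weakly. Igfbp7 stood at 7.24, 7.52, 10.8, 10.1 and 11.2 CPM in oxaliplatin replicates 1 to 5, against 5.82, 5.33, 7.80, 7.52 and 8.78 CPM in vehicle replicates 1 to 5. Oxaliplatin replicates 3, 4 and 5 lay above all vehicle libraries. The Igfbp7 log2 fold change was 0.41 ± 0.16, or 1.33-fold (95% interval 0.07 to 0.75, edgeR adjusted p = 0.203). With a block for replicate number it was 0.41 ± 0.10 (edgeR adjusted p = 0.0414, with 0.0414 to 0.407 over all alternatives). The sum of 10 markers of mural cells, the cells around vessels, was 307, 213, 216, 294 and 242 CPM in oxaliplatin replicates 1 to 5, against 179, 205, 188, 177 and 192 CPM in vehicle replicates 1 to 5. The groups did not overlap, but within the oxaliplatin group the libraries were not in the order of Igfbp7: replicate 1 had the highest sum and the lowest Igfbp7. Of these, 2 rose, the potassium channel subunits Kcnj8 (log2 fold change 1.23 ± 0.21, edgeR adjusted p = 0.0101) and Abcc9 (0.98 ± 0.21, edgeR adjusted p = 0.0248), and none was at 0 in any library. Kcnj8 and Abcc9 were a small part of the sum, at means of 5.46 and 3.07 CPM after oxaliplatin. Acta2 averaged 46.5 CPM after oxaliplatin and 22.2 CPM after vehicle, and Tagln 48.6 and 28.7 CPM, and neither passed. The mural markers Des (-0.07) and Cspg4 (-0.02) had fitted values below 0 that did not pass. Of 10 endothelial markers 2 rose, the junction proteins Pecam1 (log2 fold change 0.98 ± 0.18, edgeR adjusted p = 0.0164) and Cdh5 (0.69 ± 0.17, edgeR adjusted p = 0.048), and the sums were 156 to 180 CPM after oxaliplatin and 138 to 189 CPM after vehicle. Emcn (-0.04) and Esam (-0.06) had fitted values below 0 that did not pass. The summed meningeal markers ranked the oxaliplatin libraries as Igfbp7 did, from replicate 5 down to replicate 1, with replicates 4 and 2 close at 446 and 444 CPM. In the vehicle group both were highest in replicate 5. Vehicle replicate 2 had the lowest Igfbp7 but a meningeal sum of 320 CPM, below only that of vehicle replicate 5. The part of mural, endothelial and meningeal cells in the Igfbp7 values was not tested.

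Igfbp3, the main IGF carrier of blood, stood at 4.59, 3.62, 5.56, 4.17 and 5.14 CPM in oxaliplatin replicates 1 to 5, against 3.53, 2.41, 2.36, 3.28 and 7.62 CPM in vehicle replicates 1 to 5. Each oxaliplatin library lay above 4 of the vehicle libraries and below vehicle replicate 5. The Igfbp3 log2 fold change was 0.27 ± 0.29 (95% interval -0.36 to 0.89, edgeR adjusted p = 0.713), and 0.67 without vehicle replicate 5 (edgeR adjusted p = 0.0727, with 0.0727 to 0.874 over all alternatives).

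Igfbp4, a binding protein that inhibits IGF action until it is cut by the protease PAPP-A, had the tightest values after oxaliplatin, with an SD of 2.44% of the mean, against 12.5% after vehicle. Igfbp4 stood at 26.6, 26.8, 26, 25.2 and 26.3 CPM in oxaliplatin replicates 1 to 5, against 23.0, 20.2, 24.9, 22.9 and 28.3 CPM in vehicle replicates 1 to 5. Every oxaliplatin library lay above vehicle replicates 1 to 4 and below vehicle replicate 5. Its log2 fold change was 0.13 ± 0.09 (95% interval -0.05 to 0.32, edgeR adjusted p = 0.495).

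Igfbp5, a binding protein that also sticks to extracellular matrix, had the highest counts of the 10 and, in both groups, the highest mean per kilobase. Igfbp5 stood at 31.9, 71.1, 59.0, 47.1 and 44.4 CPM in oxaliplatin replicates 1 to 5, against 49.4, 52.6, 39.7, 45.9 and 40.8 CPM in vehicle replicates 1 to 5. The oxaliplatin libraries ran wider than the vehicle ones on both sides, with an SD of 29.4% of the mean after oxaliplatin and 12% after vehicle. The Igfbp5 log2 fold change was 0.15 ± 0.19 (95% interval -0.27 to 0.57, edgeR adjusted p = 0.765).

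Levels of different genes can be ordered per kilobase of exon. Igfbp5, Igfbp7 and Igfbp4 averaged 8.44 ± 2.48, 7.77 ± 1.55 and 5.92 ± 0.144 CPM per kilobase after oxaliplatin, against 7.61 ± 0.913, 5.83 ± 1.18 and 5.41 ± 0.676 after vehicle (SD, n = 5 each). Igfbp5 and Igfbp7 differed by less than the SD of either after oxaliplatin, and Igfbp7 and Igfbp4 by less than the SD of either after vehicle. Igf2, Igfbp3, Irs2 and Igf1r lay between 1.16 and 2.12 CPM per kilobase after oxaliplatin and between 0.918 and 1.53 after vehicle, and within each group neighbours in order of level differed by less than the larger of their SDs. Insr, Igf1 and Irs1 were lowest, with Irs1 at 0.170 ± 0.0374 CPM per kilobase after oxaliplatin and 0.173 ± 0.0409 after vehicle. Igfbp6, which is not one of the 10 and prefers IGF2, stood far above them at 103 ± 24.2 CPM per kilobase after oxaliplatin and 65.0 ± 10.0 after vehicle.

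Of the other ligands, receptors, binding proteins and proteases of the pathway, 12 of 16 listed genes could be tested, and 0 were higher and 0 lower by the edgeR test (unadjusted p below 0.05 for 2 higher and 2 lower, against the 8.51% and 7.8% of all tested genes). DESeq2 and limma voom each called 1 higher, Igfbp6, and 1 lower, Ide. Over all genes DESeq2 called 2.92% higher and 2.3% lower, and limma voom 2.39% and 1.98%. Igfbp6 stood at 108, 91.1, 106, 106 and 161 CPM in oxaliplatin replicates 1 to 5, against 60.5, 84.3, 80.6, 60.5 and 75.4 CPM in vehicle replicates 1 to 5. Every oxaliplatin library lay above every vehicle library, as for 1 of the 12 genes and 2.25% of all tested genes. The Igfbp6 log2 fold change was 0.66 ± 0.16 (edgeR adjusted p = 0.0584). The edgeR adjusted p of Igfbp6 was 0.0317 without oxaliplatin replicate 2 and 0.0455 without oxaliplatin replicate 5, and over all alternatives the adjusted p ran from 0.000325 to 0.197. Markers of fibroblasts, which make much Igfbp6, summed to 927 to 1170 CPM after oxaliplatin and 781 to 1000 CPM after vehicle. Of these 10 markers 1 rose, the growth factor receptor Pdgfra (log2 fold change 0.62 ± 0.14, edgeR adjusted p = 0.0266). Pi16 (1.12 ± 0.37), Clec3b (1.12 ± 0.29) and Dpt (1.05 ± 0.26) had the largest fitted values and did not pass (edgeR adjusted p = 0.174, 0.0593 and 0.0554). Another 4 had fitted values below 0 that did not pass (Col1a1 -0.16, Col1a2 -0.10, Col3a1 -0.05 and Lum -0.42). At an unadjusted edgeR p below 0.05, 6 of the 10 were higher and 0 lower, against 8.51% and 7.8% of all tested genes. Most of the sum was Dcn, a matrix proteoglycan, at a mean of 767 CPM after oxaliplatin and 553 CPM after vehicle (log2 fold change 0.47 ± 0.12, edgeR adjusted p = 0.071). No fibroblast marker was at 0 in any library, and their part in the Igfbp6 values was not tested.

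Of the proteases of the list, Ide, which degrades insulin, and Pappa had the smallest p. Ide averaged 39.3 CPM after oxaliplatin and 48.7 CPM after vehicle (log2 fold change -0.31 ± 0.09, edgeR adjusted p = 0.0785, 0.0413 without oxaliplatin replicate 2, and 0.0257 to 0.227 over all alternatives). Pappa, which codes for the protease PAPP-A, averaged 3.89 CPM after oxaliplatin and 5.58 CPM after vehicle (log2 fold change -0.52 ± 0.18, edgeR adjusted p = 0.148). Insrr, the orphan relative of the insulin receptor, had a log2 fold change of 0.60 ± 0.26 (edgeR adjusted p = 0.268).

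Inside the cell, 39 of 40 listed adaptors, kinases, phosphatases, FOXO factors and glucose carriers could be tested, and 0 were higher and 0 lower by the edgeR test (unadjusted p below 0.05 for 8 higher and 4 lower, against 8.51% and 7.8% of all tested genes). DESeq2 called 2 higher and 2 lower, against 2.92% and 2.3% of all genes, and limma voom 2 higher and 1 lower, against 2.39% and 1.98%. The median log2 fold change of the 39 was 0.00. Pik3r1, the regulatory subunit of PI3-kinase, stood at 152, 137, 140, 137 and 127 CPM in oxaliplatin replicates 1 to 5, against 120, 116, 124, 121 and 101 CPM in vehicle replicates 1 to 5. Its groups did not overlap, at a log2 fold change of 0.25 ± 0.07 (edgeR adjusted p = 0.0662, with 0.0176 to 0.247 over 19 alternatives, of which 4 passed). Akt1, the kinase downstream of it, had no overlap on the lower side, at 61.8 to 67.4 CPM after oxaliplatin and 69.9 to 78.2 CPM after vehicle (log2 fold change -0.18 ± 0.06, edgeR adjusted p = 0.121, with 0.0365 to 0.289 over the alternatives, of which 1 passed). Without overlap, 1 of the 39 thus lay above and 1 below, against 2.25% and 1.77% of all tested genes. Tsc1, a brake on mTOR, had a log2 fold change of 0.39 ± 0.12 (edgeR adjusted p = 0.0991, 0.0396 without oxaliplatin replicate 2, and 0.0375 to 0.29 over all alternatives). Shc1, an adaptor that links the receptors to the RAS pathway, had one of -0.45 ± 0.14 (edgeR adjusted p = 0.132, 0.00719 without vehicle replicate 3, and up to 0.372 over all alternatives). Slc2a1, the glucose carrier GLUT1, was named after its values were seen, since it passed in 4 of 19 alternatives (log2 fold change 0.37 ± 0.12, edgeR adjusted p = 0.147, with 0.00712 to 0.321 over the alternatives).

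Of 20 genes listed as targets of FOXO factors, all tested, 2 rose and 0 fell, against 1.27% and 0.772% of all tested genes. Their median log2 fold change was 0.17, against 0.01 over all tested genes. At an unadjusted edgeR p below 0.05, 6 of the 20 were higher and 2 lower, against 8.51% and 7.8% of all tested genes. The list was assembled from several tissues, with earlier results of these data known, so its counts are a description and not an independent test. Of its genes 2, Rictor and Eif4ebp1, are also on the intracellular list. Sesn1, which restrains mTOR and is a p53 target too, stood at 90.7, 78.7, 88.3, 92.6 and 113 CPM in oxaliplatin replicates 1 to 5, against 55.5, 59.7, 65.7, 56.0 and 59.4 CPM in vehicle replicates 1 to 5. Sesn1 did not overlap between groups, as for 1 of the 20 genes and 2.25% of all tested genes on the higher side. It passed in all 19 alternative fits (log2 fold change 0.64 ± 0.08, edgeR adjusted p = 0.0015). Pdk4, a kinase that shuts off pyruvate dehydrogenase and is also a glucocorticoid target, stood at 14.1, 5.50, 8.33, 13.9 and 13.0 CPM in oxaliplatin replicates 1 to 5, against 2.70, 3.72, 5.54, 4.39 and 3.84 CPM in vehicle replicates 1 to 5. Only oxaliplatin replicate 2 lay within the vehicle range, and the Pdk4 log2 fold change was 1.44 ± 0.27 (edgeR adjusted p = 0.0219). Pdk4 no longer passed when a single library was left out in 4 of 10 fits: oxaliplatin replicate 4 (edgeR adjusted p = 0.0565), oxaliplatin replicate 5 (0.0629), vehicle replicate 4 (0.0627) and vehicle replicate 5 (0.0679). Over all 19 alternatives, of which 12 passed, its adjusted p ran from 5.19e-07 to 0.109 and its log2 fold change from 1.32 to 1.61. Klf15, a transcription factor that is also a glucocorticoid target, was named after its values were seen, since it passed in 8 of 19 alternatives (log2 fold change 1.29 ± 0.30, edgeR adjusted p = 0.0562, with 0.00531 to 0.158 over the alternatives). Gadd45a was named in the same way, since it passed as lower in 3 of 19 alternatives (log2 fold change -0.64 ± 0.20, edgeR adjusted p = 0.126, with 0.0214 to 0.276 over the alternatives). Irs2 and Insr, which FOXO factors are also known to switch on, did not pass, as given above.

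**Figure D4:**
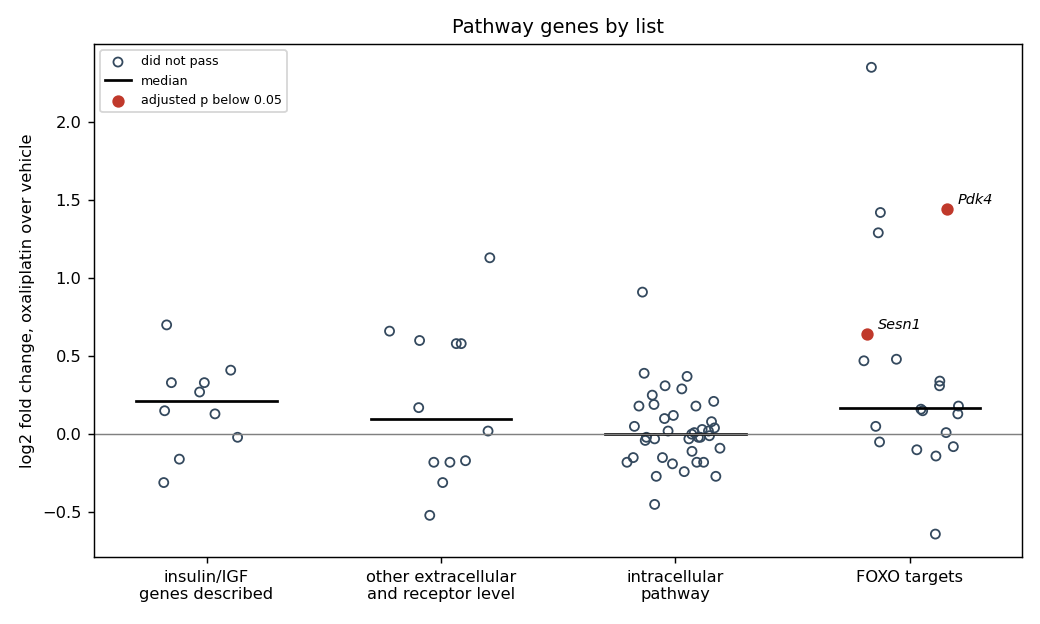
Log2 fold change of oxaliplatin over vehicle (vertical axis) for each tested gene of 4 lists, with the list median as a black line. Filled red points passed the edgeR test at an adjusted p below 0.05, which only Sesn1 and Pdk4 of the FOXO list did.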

How the data were processed

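Per the file headers and labels, the authors deposited raw read counts per Ensembl gene, 1 column for each of 10 libraries. The submitters' processing notes name STAR 2.5.1a, Partek and DESeq2 without a role for each. For the build, annotation, counting step and strand setting, nothing is stated in the labels or headers. The 40757 rows held 40481 Ensembl IDs after 276 rows repeated with identical counts were dropped, and 40254 IDs were in the GENCODE M21 name table.

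The test on the deposited counts was that of edgeR 4.0.16, run in R 4.3.3 (filterByExpr, TMM, robust quasi-likelihood fit, no covariates, Benjamini-Hochberg over 18401 genes, threshold 0.05). The SE is the absolute log2 fold change over the square root of F, and 95% intervals use the fit's degrees of freedom. The biological coefficient of variation was 19.3%. Libraries of a group differed by more than counting noise, at 12.8 to 53.6 chi-square units per degree of freedom, so none was merged. Levels per kilobase use exon lengths of GENCODE M21, which may not be the authors' annotation. In that annotation Igf2 shares 3596 exon bases with a gene on the same strand that is not analysed here, Igfbp7 shares 85 with Polr2b and Irs1 2822 with Gm9747 on the opposite strand (0 counts); how shared reads were counted is unknown.

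The test was tested on data simulated from the oxaliplatin and vehicle libraries (18149 genes, 50 changed at each of 4 sizes). It found 70% at 1.5-fold, 92% at 2-fold, 100% at 4-fold and 92% at 0.5-fold, and 14 of 191 calls (7.33%) were false. Changed genes had a mean of at least 2 CPM. Alternatives were RLE or no composition factors, no filter or 1 CPM in 5 libraries, DESeq2 1.42.0, a block for replicate number, voom with quality weights (limma 3.58.1), sva 3.50.0 with 1 surrogate variable, and leaving out each library or both oxaliplatin replicate 1 and vehicle replicate 5. The members and lists were chosen with earlier results of these data known. All 10 members are named. Of the 3 other pathway lists, genes past the threshold are named, or else the 4 of smallest p; cell type markers are given as list summaries, with single genes only beside a result they stand next to. Other genes most like a member were to be named for members that passed, and none did.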

Additional observations from a re-analysis of the deposited data

Results flagged for a closer look

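In 4 of 40 groups of 5 libraries checked, 1 library stood apart from the rest by more than Dixon's 95% critical value of 0.71, where chance gives about 1 in 20. The groups were those of the 10 genes and of the 10 other pathway genes named by the rule above. Insr was at 7.28 CPM in oxaliplatin replicate 2, below the 8.61 to 8.87 CPM of the other oxaliplatin libraries. Igfbp3 was at 7.62 CPM in vehicle replicate 5, above the 2.36 to 3.53 CPM of the other vehicle libraries. Igfbp6 was at 161 CPM in oxaliplatin replicate 5, above the 91.1 to 108 CPM of the others of its group. Tsc1 was at 12.5 CPM in vehicle replicate 5, below the 15.8 to 17.1 CPM of the other vehicle libraries.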

How the results depend on the processing

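Of 190 values of the 10 genes under 19 alternatives, 179 kept both direction and side of the threshold. Values that changed sign lay close to 0: Irs1 at 0.01 without a composition factor, 0.05 without oxaliplatin replicate 1 or 2, 0.01 without vehicle replicate 3 and 0.07 without vehicle replicate 4 (from -0.16 to 0.07 with any 1 library left out); Igf1 at 0.00 with 1 surrogate variable; Igfbp5 at 0.00 without oxaliplatin replicate 2 (from 0.00 to 0.28 with any 1 library left out); Irs2 at 0.02 without oxaliplatin replicate 1 and vehicle replicate 5. With 1 library left out, 0 to 1 of the 10 genes were higher and 0 lower. The median of all genes moved to 0.039 at most, without a composition factor.

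The check made did not settle whether replicate numbers pair the libraries. Same-numbered deviations correlated at 0.092, -0.038, 0.212, -0.018 and 0.145 in replicates 1 to 5. Oxaliplatin replicates 1, 3 and 5 correlated best with the vehicle library of the same number, and replicates 2 and 4 with another number. With the replicate block 2 of the 10 genes were higher, Igf2 (0.68, edgeR adjusted p = 0.0113, range over alternatives 0.0113 to 0.694) and Igfbp7 (0.41, 0.0414, range 0.0414 to 0.407); 1 extracellular gene and 1 FOXO target were lower, Klf15 took the place of Pdk4 (0.058) among the 2 FOXO targets called higher, and 2 intracellular genes higher, and over all genes 382 were higher and 278 lower. Over all genes 234 were higher and 142 lower in the main test, 516 and 406 with DESeq2, 439 and 365 with limma voom, and 142 and 76 when oxaliplatin replicate 1 and vehicle replicate 5 were both dropped, where 1 intracellular gene was higher. With 1 library left out these counts ran from 79 to 343 higher and from 34 to 251 lower.

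Without a composition factor 1 extracellular and 1 intracellular gene were higher. DESeq2 gave 1 extracellular gene higher and 1 lower, 2 intracellular genes higher and 2 lower, and 1 FOXO target (Gadd45a) lower. Limma voom gave 1 extracellular gene higher and 1 lower, and 2 intracellular genes higher and 1 lower. FOXO targets called higher were 3 with DESeq2, limma voom, no composition factor or the stricter filter, and 1 with 1 surrogate variable. With 1 library left out, extracellular genes ranged from 0 to 1 in each direction, intracellular genes from 0 to 1 in each direction, FOXO targets from 1 to 3 higher and from 0 to 1 lower. The cause of these shifts was not tested. The 10 genes had 51 to 4158 counts per library, and their fitted biological coefficient of variation ran from 11.8% for Igfbp4 to 47.3% for Igf2. Whether the spread of each gene within a group exceeds counting noise was not tested. For Igfbp4 after oxaliplatin the SD was only 2.44% of the mean.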

Other observations

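Vehicle replicate 5 was the highest vehicle library for 6 of the 10 genes and the lowest for 2, more extremes than any other library of its group (1 to 4 of 10). In the oxaliplatin group the extremes were spread over the libraries, from 2 of 10 in replicate 5 to 6 of 10 in replicate 2. Skeletal muscle markers, a sign of tissue taken along with the ganglion, summed to 12 to 29.7 CPM in oxaliplatin replicates 2 to 5 and 862 CPM in oxaliplatin replicate 1, against 120 to 618 CPM in the vehicle libraries. Adipocyte markers summed to 1180 CPM in oxaliplatin replicate 1, and to 36.3 to 89.9 CPM in the other oxaliplatin libraries and 39.0 to 90.3 CPM in the vehicle libraries. Slc2a4, the insulin-responsive glucose carrier of muscle and fat, had a log2 fold change of 0.91 ± 0.39 (edgeR adjusted p = 0.276).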
